A study of Homo sapiens with 12 samples.

Results

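HCC827 cells, from a lung adenocarcinoma whose EGF receptor gene carries an activating mutation, were grown in medium shared with MRC-5 lung fibroblasts, and the effect of gefitinib on their RNA was measured within that co-culture. The comparison holds 6 of the 12 Illumina bead arrays of the study. They are the 3 arrays titled as co-culture with gefitinib and the 3 titled as co-culture without it, and these titles chose them. All 6 samples are HCC827 cells kept with MRC-5 cells in inserts of 1 µm pore size for 48 h in EMEM with 10% serum. The treated group had received 0.5 µM gefitinib, given after 24 h and followed by washes with PBS before co-culture began. The labels give no vehicle for the untreated co-culture and do not say whether the fibroblasts met the drug. The other 6 arrays are HCC827 cells grown alone with DMSO or with 0.5 µM gefitinib, 3 arrays each. One treatment text stands on all 12 samples, so the medium of the monocultures during the last 48 h is not clear from it. Both HCC827 and MRC-5 are single cell lines, and nothing in the labels says whether the 3 samples of a group came from separate cultures, so the p-values measure the spread between these samples, which may be technical.

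Gefitinib blocks the kinase of the EGF receptor, which in cells with an activating mutation drives the RAS-ERK and PI3K-AKT pathways and with them cell division and anabolic metabolism. ERK activity switches on immediate early and feedback genes such as EGR1, DUSP6 and the PEA3 factors, while AKT and mTORC1 support ATF4, the transcription factor of amino acid supply, and the SREBP factors of lipid synthesis. Fibroblasts release growth factors and cytokines that can act on tumour cells through the medium, and loss of EGF receptor signalling is known to release inflammatory and interferon genes in lung cancer cells.

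Levels below are log2 of the intensities that the authors had normalized between arrays. They are compared only within a probe. No background had been subtracted from these values, so log2 changes of dim genes are smaller than they would be after subtraction. Of 48107 probes, 44.5% to 46.3% were detected on each co-culture array (detection p under 0.05). Arrays of one co-culture group correlated with r between 0.991 and 0.993, and drug-free with gefitinib arrays with r of up to 0.992. The pairs from DMSO and gefitinib monoculture had r of 0.978 to 0.980. The arrays of a group are numbered as in the titles and are called drug-free arrays and gefitinib arrays, and both terms refer to the co-culture unless monoculture is named. Changes are given as gefitinib minus no drug with their standard errors (n = 3 arrays per group), and errors of levels are standard deviations. A gene was called when its Benjamini-Hochberg adjusted p in a limma model of all 12 arrays was under 0.05.

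The cells on the 6 arrays carried the epithelial markers of a lung carcinoma line. All 13 tested members of the epithelial list were detected on every gefitinib array, and 12 of them on every drug-free array. EPCAM, an epithelial adhesion protein, stood at 12.67, 12.72 and 12.79 on the drug-free arrays and 12.64, 12.62 and 12.76 on the gefitinib arrays. The summed intensity of the 13 genes was 30197 to 31878 on the drug-free and 26429 to 27557 on the gefitinib arrays. Of 21 fibroblast markers, 14 were tested. The other 7 (COL3A1, POSTN, FAP, THY1, PDGFRA, PDGFRB and FBN1) had no probe detected on at least 3 of the 12 arrays and were not analysed further. The summed intensity of the 14 was 4105 to 4359 on the drug-free and 4047 to 4468 on the gefitinib arrays, so the groups overlapped. Vimentin alone gave 2263 to 2674 on the drug-free and 2035 to 2545 on the gefitinib arrays, and background was not subtracted. The sum is therefore a weak measure of fibroblast RNA. In DMSO monoculture, where no fibroblasts were present, the sum was 3776 to 3835, and in gefitinib monoculture 6898 to 7520. Vimentin, which was also detected on all 3 arrays of DMSO monoculture, had a difference of -0.03 ± 0.092 (adjusted p = 0.94) in co-culture and was not called. In bulk RNA, fewer cells of a kind and less RNA per cell cannot be told apart.

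Gefitinib in co-culture changed 346 of 13577 genes (2.55%), 140 upward (1.03%) and 206 downward (1.52%). Counts of called list members below are to be read beside these shares. Counts of called differences from monoculture are to be read beside 22.2% of all genes. The 15 largest falls included PHGDH and PSAT1 of serine synthesis, ASNS, asparagine synthetase, INSIG1 and HMGCS1 of sterol control and synthesis, and the mucin MUC1. The 15 largest rises included UBD, IL32 and TRAF1, the endothelins EDN1 and EDN2, and TAGLN, an actin-binding protein. Changes were small: 7 of the called genes moved by at least 2-fold, and the median size among the 346 was 0.40 on the log2 scale. At an unadjusted p under 0.05, 1687 genes passed. The median change of all genes tested was -0.00276. After centring each array on its median instead of using the authors' normalization, 93 genes were called higher and 244 lower. With background correction of the scanner values the count was 204.

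**Figure D1:**
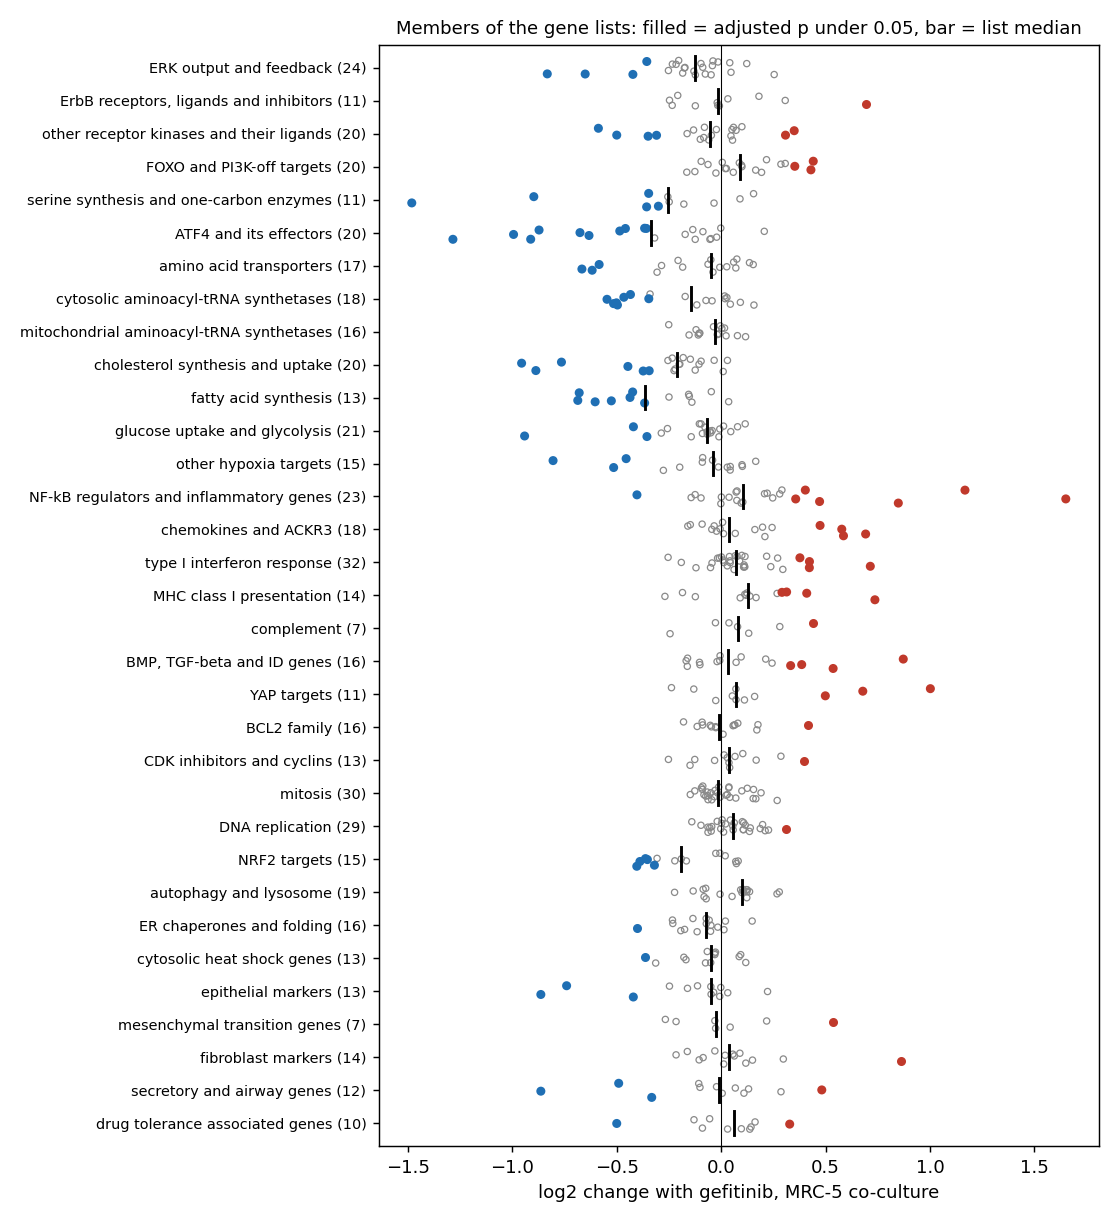
Each point is a tested gene, placed by its log2 change with gefitinib in co-culture (x axis) within 33 gene lists (rows, number of tested members in brackets). Filled points passed an adjusted p under 0.05, red for higher and blue for lower, and black bars are list medians. The filled points of the serine, ATF4, amino acid transport, synthetase, sterol and fatty acid lists all lie below 0, and those of the chemokine, interferon and MHC class I lists above 0.

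PHGDH and PSAT1 of serine synthesis and 3 mitochondrial enzymes of one-carbon metabolism fell with gefitinib. Of 11 tested genes of the serine and one-carbon list 5 fell and 0 rose (median -0.26). PHGDH, the first enzyme of serine synthesis, was the gene with the largest fall of all. It stood at 11.78, 11.74 and 11.62 on the drug-free arrays and 10.11, 10.37 and 10.21 on the gefitinib arrays. The lowest drug-free array lay above the highest gefitinib array by more than a 2-fold step, and the change was -1.48 ± 0.085 (adjusted p = 8.20e-12), to 0.358 times the drug-free level. PSAT1, the next enzyme of the pathway, was at 11.65, 11.67 and 11.56 on the drug-free arrays and 10.69, 10.62 and 10.88 on the gefitinib arrays, a change of -0.90 ± 0.084 (adjusted p = 6.67e-08). The mitochondrial enzymes SHMT2, MTHFD2 and MTHFD1L handle the one-carbon unit that serine gives to folate. They fell by 0.36, 0.35 and 0.30. Calls ended for SHMT2 without drug-free array 1 or gefitinib array 2 (-0.32 to -0.31) and MTHFD1L without drug-free array 1 or 3 or gefitinib array 1 or 2 or 3 (-0.32 to -0.27), for MTHFD1L with the 6 co-culture arrays alone, and for all 3 of these enzymes after background correction (-0.35, -0.36 and -0.34). Without drug-free array 1 or gefitinib array 2 the list held 3 called members.

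Several effector genes of ATF4 fell, while the RNA of ATF4 itself was not called. Of 20 tested members of this list 10 fell, 0 rose and the others were not called (median -0.34), against 1.52% of all genes. Like the other lists, it was chosen with earlier results of these data known, so this share is a description and not a test. ATF4 is controlled mainly through translation of its RNA. Its level was 13.31, 13.18 and 13.21 on the drug-free arrays and 13.03, 13.13 and 13.03 on the gefitinib arrays, a difference of -0.17 ± 0.078 (adjusted p = 0.345) that was not called, with all gefitinib arrays below all drug-free ones. Groups were separate in this way for 15.5% of all genes, with gefitinib higher in 7.22% and lower in 8.32%. ASNS, asparagine synthetase, was at 11.48, 11.48 and 11.45 on the drug-free arrays and 10.16, 10.19 and 10.19 on the gefitinib arrays. Its arrays were nearly identical within each group, and it changed by -1.28 ± 0.077 (adjusted p = 1.56e-11), to 0.411 times. TRIB3, a pseudokinase that restrains AKT and ATF4, was at 11.46, 11.40 and 11.50 on the drug-free arrays and 10.39, 10.64 and 10.35 on the gefitinib arrays, a change of -0.99 ± 0.086 (adjusted p = 1.96e-08). PCK2, the mitochondrial phosphoenolpyruvate carboxykinase, changed by -0.91 ± 0.083 (adjusted p = 4.22e-08), and the mean of its 3 probes by -0.43. DDIT4, an inhibitor of mTORC1, changed by -0.87 ± 0.079, CBS, which starts cysteine synthesis from homocysteine, by -0.68 ± 0.076, and CEBPG, a dimer partner of ATF4, by -0.63 ± 0.081.

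Some amino acid carriers and some of the enzymes that charge tRNAs in the cytosol fell. Among 17 tested transporters 3 fell and 0 rose (median -0.05). They were SLC3A2 at -0.67 ± 0.083 (adjusted p = 5.55e-06) and SLC7A5 at -0.62 ± 0.073 (adjusted p = 2.50e-06), the heavy and light chains of the large neutral amino acid exchanger, and SLC6A9, a glycine carrier, at -0.58 ± 0.082 (adjusted p = 3.72e-05). SLC6A9 changed by -1.01 after background correction, and by -0.26 as the mean of its probes. SLC7A5 was at 13.07, 13.03 and 13.002 on the drug-free arrays and 12.41, 12.39 and 12.45 on the gefitinib arrays, without overlap. Of 18 tested cytosolic aminoacyl-tRNA synthetases 7 fell and 0 rose (median -0.14), whereas of 16 mitochondrial ones 0 passed limma's test and 1 had an unadjusted p under 0.05 (median -0.03). The difference between both lists was not tested. The largest cytosolic falls were those of WARS1 (-0.55 ± 0.074), AARS1 (-0.52 ± 0.078) and YARS1 (-0.50 ± 0.077), which charge tryptophan, alanine and tyrosine. MARS1 (-0.50 ± 0.087), GARS1 (-0.47 ± 0.098) and SARS1 (-0.43 ± 0.077) followed. The call of GARS1 ended without drug-free array 3 or gefitinib array 2 (-0.38 to -0.37) and after background correction (-0.47). VARS2, the valine enzyme of mitochondria, was at -0.25 ± 0.078 (adjusted p = 0.0984).

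Among the 25 called genes of these 4 lists, 23 had a promoter window in RefSeq (GRCh38.p14), taken as 250 bases before to 50 after the first listed start of each gene. The composite element that C/EBP and ATF factors bind was searched as TGATGNAA on both strands and was found in 5 of the 23 windows, those of ASNS, AARS1, MTHFD1L, SLC3A2 and MARS1. Of all 27305 windows, 3.67% held it, and 1.93% of those of the 10704 tested genes with a window. The motif was chosen after the groups were known, and the shares were not tested. Stretches from ASNS (chr7:97872439-97872506, minus strand), AARS1 (chr16:70289656-70289723, minus strand) and MTHFD1L (chr6:150866327-150866394, plus strand) are shown because their matches lie upstream of the start. Capitals mark the match, which begins at position -68 from the start in ASNS, -187 in AARS1 and -129 in MTHFD1L.
ASNS: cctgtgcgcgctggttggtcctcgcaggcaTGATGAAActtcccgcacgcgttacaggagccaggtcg
AARS1: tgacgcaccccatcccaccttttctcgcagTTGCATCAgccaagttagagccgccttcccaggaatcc
MTHFD1L: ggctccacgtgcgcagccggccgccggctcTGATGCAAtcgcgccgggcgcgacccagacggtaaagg
The match in AARS1 is on the opposite strand. A match describes the letters of the window and does not show binding.

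In monoculture, several of these genes changed with gefitinib to a different extent or in the other direction. The settings also differ in a title suffix, and possibly in vehicle and medium, which cannot be told apart from co-culture. ASNS was at -0.08 ± 0.077 in monoculture, which was not called, and the difference between co-culture and monoculture was -1.20 ± 0.11 (adjusted p = 3.72e-09). PCK2 rose in monoculture (0.27 ± 0.083; difference -1.18 ± 0.12 (adjusted p = 2.13e-08)), and so did CBS (0.27 ± 0.076; difference -0.95 ± 0.11 (adjusted p = 1.94e-07)). PHGDH fell in both settings, by more in co-culture (difference -0.64 ± 0.12 (adjusted p = 2.35e-04)). TRIB3 was at -0.69 ± 0.086 in monoculture, and its difference was not called (-0.31 ± 0.12 (adjusted p = 0.0709)). Of the 20 ATF4 list genes, 12 had a called difference, 11 of them toward lower values in co-culture, against 22.2% of all genes called in either direction. Levels in the 4 groups are given side by side. ASNS stood at 10.49 ± 0.097 in DMSO monoculture, 10.41 ± 0.076 in gefitinib monoculture, 11.47 ± 0.016 in drug-free co-culture and 10.18 ± 0.017 in co-culture with gefitinib. The drug-free co-culture was the high group, and the other 3 groups lay within 0.31 of each other. PHGDH was at 10.75 ± 0.039, 9.91 ± 0.12, 11.71 ± 0.083 and 10.23 ± 0.13 in the same order. The level of CBS was 10.13 ± 0.044, 10.40 ± 0.046, 10.63 ± 0.072 and 9.96 ± 0.057.

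**Figure D2:**
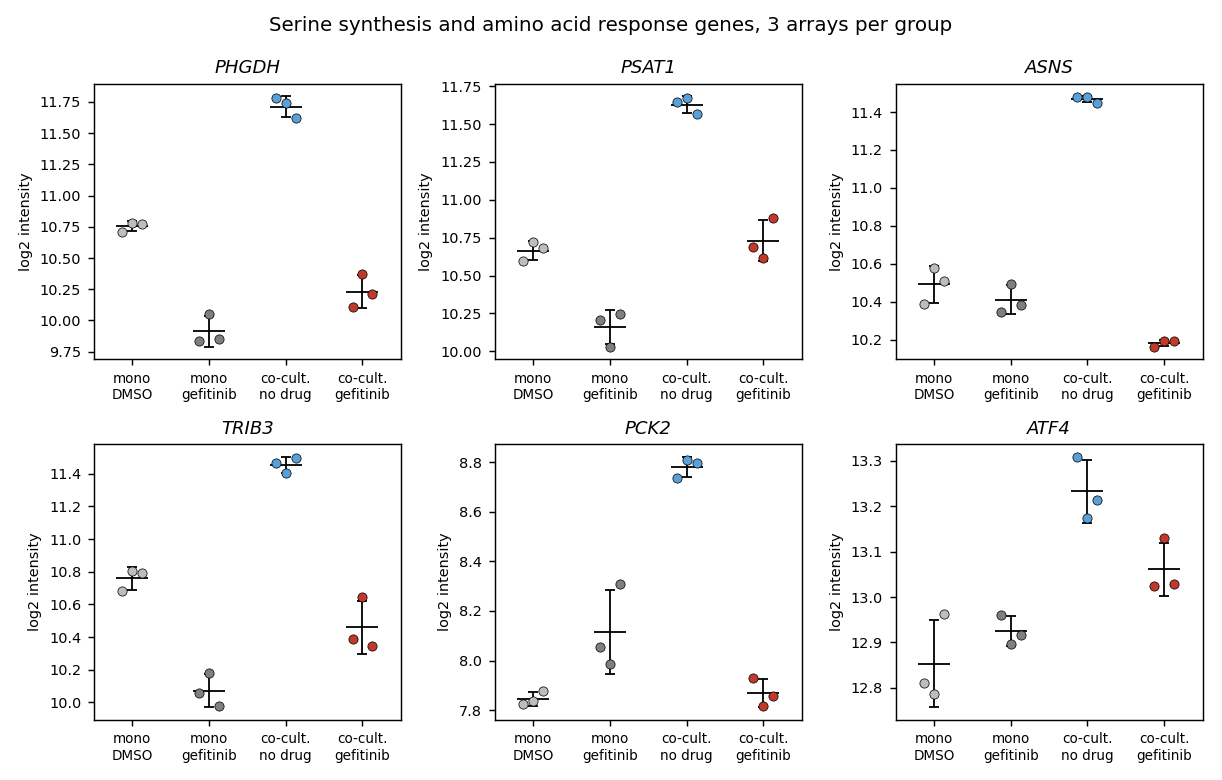
Log2 intensity (y axis) of 6 genes on each of the 12 arrays, by group. Points are arrays, and bars are the group mean with its SD (n = 3). In PHGDH, PSAT1, ASNS, TRIB3 and PCK2 the 3 drug-free co-culture arrays are the highest of the 12, and the co-culture arrays with gefitinib lie 0.90 to 1.48 lower. The scale of ATF4 spans less than 1 unit.

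Some genes of sterol and fatty acid synthesis fell, and the other members of both lists were not called. Of 20 tested genes of cholesterol synthesis and uptake 6 fell and 0 rose (median -0.21). Of 13 tested fatty acid synthesis genes 7 fell and 0 rose (median -0.37). An unadjusted p under 0.05 in limma's test was found for 13 of the 20 and 8 of the 13, against 1687 of all 13577 genes. HMGCS1, which makes the precursor of mevalonate, was at 10.47, 10.30 and 10.39 on the drug-free arrays and 9.64, 9.41 and 9.45 on the gefitinib arrays. The groups did not overlap, and the change was -0.89 ± 0.085 (adjusted p = 8.83e-08). INSIG1, which holds the SREBP escort protein in the endoplasmic reticulum and is itself an SREBP target, was at 10.55, 11.15 and 11.18 on the drug-free arrays and 10.02, 9.88 and 10.11 on the gefitinib arrays. Drug-free array 1 was lower than the other two, and the change was -0.96 ± 0.11 (adjusted p = 2.86e-06). MSMO1, a sterol methyl oxidase, changed by -0.76 ± 0.080, although 1 other probe had the other sign and the average over its probes was -0.39. Smaller falls were those of SQLE, squalene epoxidase (-0.45 ± 0.10), MVD, a mevalonate pathway enzyme (-0.37 ± 0.081), and ACAT2 (-0.34 ± 0.087). Calls ended for SQLE without drug-free array 3 or gefitinib array 2 (-0.34 to -0.32), MVD without drug-free array 2 or gefitinib array 3 (-0.33) and ACAT2 without drug-free array 1 or 2 or 3 or gefitinib array 1 or 2 (-0.36 to -0.32). After background correction MVD was at -0.62, and the calls of SQLE (-0.51) and ACAT2 (-0.38) ended. The sterol list held 4 called members without drug-free array 2 or 3 or gefitinib array 2.

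On the fatty acid side, SCD, the desaturase that makes monounsaturated fatty acids, was at 12.62, 12.61 and 12.56 on the drug-free arrays and 11.86, 11.82 and 12.06 on the gefitinib arrays, a change of -0.68 ± 0.078 (adjusted p = 1.59e-06). LPIN1, a phosphatidate phosphatase, changed by -0.69 ± 0.076 (adjusted p = 8.66e-07) and ACSS2, which activates acetate, by -0.60 ± 0.074 (adjusted p = 4.92e-06), although 1 other probe of ACSS2 had the other sign. SREBF1, the gene of SREBP-1, changed by -0.53 ± 0.084, FASN, fatty acid synthase, by -0.44 ± 0.078 and ELOVL6, an elongase, by -0.42 ± 0.090. The call of ELOVL6 ended without drug-free array 1 (-0.38) and after background correction (-0.44). In monoculture the drug changed SCD by -1.29 ± 0.078 and ELOVL6 by -1.71 ± 0.090, larger falls than in co-culture (differences 0.61 ± 0.11 (adjusted p = 1.57e-04) and 1.29 ± 0.13 (adjusted p = 2.13e-08)). ACSS2 was at -0.10 ± 0.074 in monoculture, a smaller change than in co-culture (difference -0.50 ± 0.11 (adjusted p = 7.49e-04)). For HMGCS1 the monoculture value was -0.67 ± 0.085, and the difference was not called (-0.22 ± 0.12 (adjusted p = 0.22)). The sterol element TCACNCCAC was found in 0 of 10 promoter windows of the 13 called genes of both lists. It was present in 1.15% of all windows.

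Glucose uptake and hypoxia genes had few called members. In the glycolysis list 3 of 21 tested genes fell (median -0.07), and among 15 other hypoxia targets 3 fell (median -0.04). SLC2A3, the high-affinity glucose carrier GLUT3, was at 8.04, 7.94 and 7.77 on the drug-free arrays and 6.92, 6.99 and 7.03 on the gefitinib arrays. It changed by -0.94 ± 0.083 (adjusted p = 2.84e-08), and by -1.86 after background correction. ALDOC, an aldolase, changed by -0.42 ± 0.076 (adjusted p = 0.00107). PFKFB4, which sets the level of an activator of glycolysis, changed by -0.36 ± 0.084, a call that ended without drug-free array 1 or gefitinib array 1 (-0.31 to -0.26), with the 6 co-culture arrays alone and after background correction (-0.41). ANGPTL4, a secreted lipase inhibitor, changed by -0.80 ± 0.076 (adjusted p = 7.40e-08) on its brightest probe. Both other probes had the opposite sign, and the call ended with the mean of the 3 (-0.24). NDRG1 changed by -0.51 ± 0.078 and VEGFA, an angiogenic factor, by -0.45 ± 0.087. In monoculture 18 of the 21 glycolysis genes fell (16% of all genes did). The difference was called for 14 (22.2% of all genes), each toward less fall in co-culture, with PFKFB4 at 1.34 ± 0.12 (adjusted p = 2.74e-09). SLC2A3 was at -0.66 ± 0.083 in monoculture, with no called difference (-0.28 ± 0.12 (adjusted p = 0.093)).

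The inflammatory genes held the largest rises. Of 23 tested NF-kB regulators and inflammatory genes 6 rose and 1 fell (median 0.10), against 1.03% of all genes called higher. This list too was chosen with earlier results of these data known, so its share is no test. UBD, a ubiquitin-like modifier induced by cytokines, was at 7.72, 7.83 and 7.86 on the drug-free arrays and 9.62, 9.54 and 9.20 on the gefitinib arrays. Every gefitinib array exceeded every drug-free array by more than 1 log2 unit, and the change was 1.65 ± 0.093 (adjusted p = 8.20e-12), a 3.14-fold rise. IL32, a proinflammatory cytokine, was at 7.11, 7.27 and 7.09 on the drug-free arrays and 8.32, 8.49 and 8.17 on the gefitinib arrays, a change of 1.17 ± 0.089 (adjusted p = 2.05e-09) or 2.25-fold. TRAF1, an adaptor of TNF receptors, was at 7.00, 6.85 and 6.95 on the drug-free arrays and 7.70, 7.78 and 7.87 on the gefitinib arrays, a change of 0.85 ± 0.078 (adjusted p = 4.47e-08). Background correction raised these values to 1.97 for IL32 and 1.80 for TRAF1. The mean of the probes of TRAF1 changed by 0.50. IL6, a cytokine that signals through STAT3, rose by 0.47 ± 0.087 (adjusted p = 0.00132). TNFAIP3, which brakes NF-kB signalling, rose by 0.40 ± 0.088 (adjusted p = 0.00829), a call that ended without gefitinib array 1 (0.34) and after background correction (0.54). PTGS2, cyclooxygenase 2, was the member that fell (-0.40 ± 0.095 (adjusted p = 0.0145)). Its other probe had the opposite sign, and the call ended with the mean of both (-0.20), after background correction (-0.66) and without drug-free array 3 or gefitinib array 2 (-0.34 to -0.31).

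Among 18 chemokine genes, counting the atypical receptor ACKR3, 4 rose and 0 fell (median 0.04). CCL2, which attracts monocytes, was not detected on any drug-free co-culture array and was detected on all 3 with gefitinib. It stood at 6.59, 6.68 and 6.62 on the drug-free arrays and 7.36, 7.21 and 7.05 on the gefitinib arrays, which bounds its rise at least 1.46-fold (adjusted p = 6.03e-05). The bound sets the gefitinib mean against the mean of, per drug-free array, the higher of the lowest detected signal and the value of the probe. CXCL16 was at 9.03, 9.12 and 9.06 on the drug-free arrays and 9.71, 9.84 and 9.74 on the gefitinib arrays, a change of 0.69 ± 0.080 (adjusted p = 1.59e-06). CXCL8, a neutrophil chemokine, rose by 0.47 ± 0.077 (adjusted p = 2.94e-04). CXCL1 rose by 0.59 ± 0.13 (adjusted p = 0.012), but drug-free array 1 (8.15) lay above gefitinib array 3 (8.06). Its call ended without drug-free array 2 or 3 or gefitinib array 1 (0.43 to 0.51), with the 6 co-culture arrays alone and after background correction (0.94).

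The kB element, searched on both strands as GGGA, any base, TT, any base and CC, was found in 5 of 8 promoter windows of the 10 called genes of these lists that rose. They were IL32, CXCL1, IL6, TNFAIP3 and NFKBIA, an inhibitor of NF-kB that falls outside the naming rule and is given only for its window. The element was in 1.41% of all windows and in 1.53% of those of tested genes. It was chosen after the groups were known, and the shares were not tested. UBD, TRAF1, CXCL16, CXCL8 and CCL2 had no match or no window. Stretches of IL32 (chr16:3065274-3065343), CXCL1 (chr4:73869284-73869353) and IL6 (chr7:22727097-22727166), all on the plus strand, are shown. Their rises were the largest among the genes with a match, not among all genes searched. Capitals mark the match, which begins at positions -99, -79 and -73 from the start.
IL32: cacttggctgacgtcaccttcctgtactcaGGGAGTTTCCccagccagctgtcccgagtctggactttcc
CXCL1: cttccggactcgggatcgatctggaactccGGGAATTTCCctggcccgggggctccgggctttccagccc
IL6: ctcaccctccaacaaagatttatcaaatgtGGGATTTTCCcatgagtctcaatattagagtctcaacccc

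Interferon response and antigen presentation genes were called higher in few members. Of 32 tested type I interferon response genes 4 rose and 0 fell (median 0.07). IFI27 was at 9.75, 9.83 and 9.99 on the drug-free arrays and 10.68, 10.74 and 10.29 on the gefitinib arrays, a change of 0.71 ± 0.099 (adjusted p = 2.91e-05). OAS3, a sensor of double-stranded RNA, rose by 0.42 ± 0.080 and EPSTI1 by 0.42 ± 0.088, or 0.71 and 0.71 after background correction. IFIT2 was at 0.38 ± 0.095. Calls ended for EPSTI1 without drug-free array 2 (0.36) and IFIT2 without drug-free array 1 or 2 or 3 or gefitinib array 2 (0.27 to 0.39), and IFIT2 was not called after background correction (0.63). The list held 2 called members without drug-free array 2. Among 14 tested MHC class I genes 4 rose and 0 fell (median 0.13), but 1 when gefitinib array 1 or 2 was left out and 2 without drug-free array 1 or 2. HLA-B, a peptide-presenting heavy chain, was at 8.32, 8.52 and 8.48 on the drug-free arrays and 9.33, 9.05 and 9.16 on the gefitinib arrays, a change of 0.74 ± 0.084 (adjusted p = 1.44e-06), and kept its call under all the alternatives run. The calls of TAPBP, tapasin (0.41 ± 0.096), and of the nonclassical heavy chains HLA-F (0.31 ± 0.083) and HLA-E (0.29 ± 0.076) ended after background correction (0.48, 0.36 and 0.33). They also ended for TAPBP without drug-free array 3 or gefitinib array 1 or 2 (0.34 to 0.36), HLA-F without drug-free array 1 or 2 or 3 or gefitinib array 1 or 2 (0.26 to 0.34) and HLA-E without drug-free array 1 or 2 or gefitinib array 1 or 2 or 3 (0.24 to 0.32). Those of HLA-F and HLA-E ended with the 6 co-culture arrays alone and with median scaling, and those of TAPBP (0.14) and HLA-F (0.20) with the mean of their probes. HLA genes share sequence, so a probe of one may also bind RNA of another. Complement factor B (CFB) was the 1 called gene of 7 tested complement genes (0.44 ± 0.077 (adjusted p = 6.97e-04)). LTB, lymphotoxin beta, rose by 0.77 ± 0.096 (adjusted p = 5.75e-06), or 1.45 after background correction and 0.45 as the mean of its probes.

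**Figure D3:**
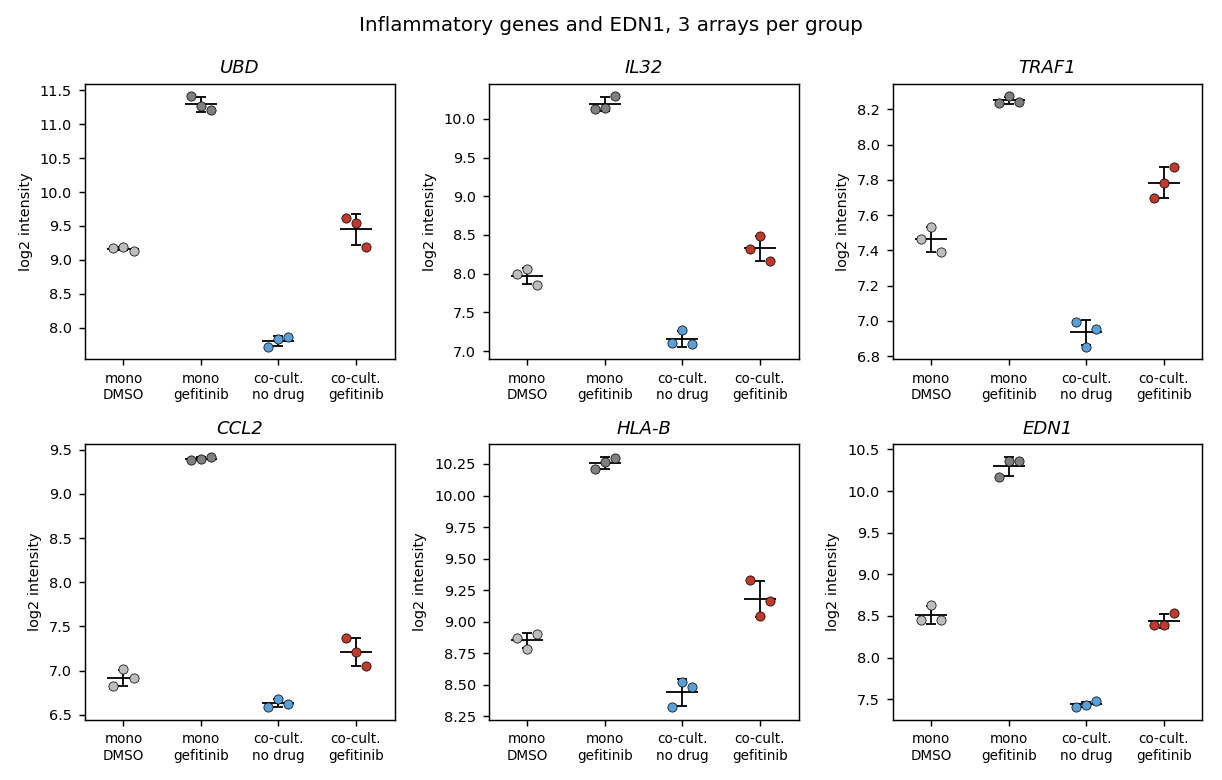
Log2 intensity (y axis) of 6 genes on each of the 12 arrays, by group, with the group mean and SD (n = 3). With gefitinib, the co-culture arrays lie above the drug-free co-culture arrays in all 6 genes, by 0.74 (HLA-B) to 1.65 (UBD) in the 5 genes other than CCL2. Gefitinib monoculture is the highest group in each, and CCL2 was not detected in the drug-free co-culture.

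IL32 and UBD rose more in monoculture than in co-culture, TNFAIP3 rose more in co-culture, and for TRAF1 no difference was called. IL32 rose in monoculture by 2.22 ± 0.089 (difference -1.05 ± 0.13 (adjusted p = 5.05e-07)) and UBD by 2.12 ± 0.093 (difference -0.47 ± 0.13 (adjusted p = 0.00936)). CCL2 stood at 6.82, 7.01 and 6.91 in DMSO monoculture and 9.38, 9.399 and 9.42 in gefitinib monoculture. Its rise in co-culture is known only as a bound, so the size of its difference between the settings is not fixed. TRAF1 rose by 0.79 ± 0.078 in monoculture, and its difference was not called (0.06 ± 0.11 (adjusted p = 0.776)). TNFAIP3 was at -0.03 ± 0.088 in monoculture, and its rise in co-culture was larger by 0.44 ± 0.12 (adjusted p = 0.0115). Of the 32 interferon genes 30 were called higher in monoculture (18.9% of all genes were), and 23 had a called difference, all toward less rise in co-culture. UBD stood at 9.17 ± 0.029 in DMSO monoculture, 11.29 ± 0.11 in gefitinib monoculture, 7.80 ± 0.070 in drug-free co-culture and 9.45 ± 0.23 in co-culture with gefitinib. For IL32 these levels were 7.97 ± 0.10, 10.19 ± 0.089, 7.16 ± 0.099 and 8.33 ± 0.16. In both genes the drug-free co-culture was the lowest group.

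The endothelins, the natriuretic peptide NPPB and some members of the TGF-beta list rose. EDN1, endothelin 1, was at 7.41, 7.43 and 7.47 on the drug-free arrays and 8.39, 8.39 and 8.54 on the gefitinib arrays, a change of 1.00 ± 0.082 (adjusted p = 8.64e-09), and EDN2 at 7.74, 7.82 and 7.73 on the drug-free arrays and 8.72, 8.597 and 8.50 on the gefitinib arrays, a change of 0.84 ± 0.079 (adjusted p = 6.24e-08). NPPB, the B-type natriuretic peptide, was at 7.45, 7.68 and 7.57 on the drug-free arrays and 8.44, 8.68 and 8.46 on the gefitinib arrays, a change of 0.96 ± 0.094 (adjusted p = 1.13e-07). All 3 genes separated the groups. EDN1 changed by 1.53 after background correction. Of 16 tested BMP, TGF-beta and ID genes 4 rose and 0 fell (median 0.03). ID3, an inhibitor of helix-loop-helix factors, rose by 0.87 ± 0.096 (adjusted p = 7.75e-07), while its relative ID1 was at -0.10 ± 0.081 (adjusted p = 0.691). TGFB2, a TGF-beta ligand, rose by 0.54 ± 0.086 (adjusted p = 2.44e-04), or 0.93 after background correction. PMEPA1, a feedback inhibitor of TGF-beta signalling, rose by 0.39 ± 0.078, but was not called as the average of its probes (0.21). FST, an activin antagonist, rose by 0.33 ± 0.081. The call of FST ended without drug-free array 2 or 3 or gefitinib array 2 (0.28 to 0.32), with the 6 co-culture arrays alone, after background correction (0.44) and with median scaling (0.29). FST fell in monoculture (-1.36 ± 0.081; difference 1.69 ± 0.11 (adjusted p = 2.34e-11)).

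Of 11 tested genes in the YAP target list, which also holds the factor TEAD1, 3 rose and 0 fell (median 0.07). They were EDN1, ANKRD1, a nuclear ankyrin repeat protein (0.68 ± 0.083 (adjusted p = 4.62e-06)), and THBS1, thrombospondin 1 (0.50 ± 0.12 (adjusted p = 0.013)). The groups of THBS1 overlapped, and its call ended without drug-free array 1 or 2 or gefitinib array 3 (0.37 to 0.42), with the 6 co-culture arrays alone and after background correction (0.61). TAGLN, the actin-binding protein transgelin, was at 7.87, 7.76 and 7.60 on the drug-free arrays and 8.69, 8.59 and 8.55 on the gefitinib arrays, a change of 0.86 ± 0.088 (adjusted p = 2.33e-07). The mean of its probes changed by 0.56. TAGLN was the 1 called gene among the 14 fibroblast markers (median 0.04), and it also rose in monoculture without fibroblasts (1.56 ± 0.088; difference -0.70 ± 0.12 (adjusted p = 1.26e-04)). Further genes among the 15 largest rises were GLIPR1 (0.87 ± 0.085), FILIP1L (0.83 ± 0.090), OLFML2A (0.81 ± 0.086), SOX4, a transcription factor (0.77 ± 0.094), and TUBB2B, a beta tubulin (0.73 ± 0.081). After background correction FILIP1L was at 1.61 and OLFML2A at 1.22. Tubulin genes are near-identical, so the probe of TUBB2B may bind a relative.

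A few genes of ERK output were called lower, and most were not called. Of 24 tested genes of ERK output and feedback 4 fell and 0 rose (median -0.13). Called or not, 20 of the 24 had a change below 0. An unadjusted p under 0.05 in limma's test was found for 11 of them, against 1687 of all 13577 genes. ETV5, a PEA3 factor, was at 8.96, 8.95 and 9.04 on the drug-free arrays and 8.16, 8.06 and 8.23 on the gefitinib arrays, a change of -0.83 ± 0.082 (adjusted p = 1.36e-07), and -0.47 with the mean of its probes. DUSP6, the phosphatase of ERK, was at 8.20, 8.13 and 8.24 on the drug-free arrays and 7.502, 7.51 and 7.61 on the gefitinib arrays, a change of -0.65 ± 0.075 (adjusted p = 1.59e-06), or -1.01 after background correction. PHLDA1 changed by -0.42 ± 0.087 (adjusted p = 0.0045), a call that ended after background correction (-0.44). FOS, an immediate early factor, changed by -0.36 ± 0.081 (adjusted p = 0.0116), or -0.66 after background correction. Its call ended without drug-free array 1 or 3 or gefitinib array 1 (-0.34 to -0.30). EGR1, an immediate early factor of ERK signalling, stood at 10.13, 10.25 and 10.31 on the drug-free arrays and 10.21, 10.08 and 10.29 on the gefitinib arrays, so the groups overlapped. Its difference of -0.04 ± 0.084 (adjusted p = 0.912) was not called and stood against -2.77 ± 0.084 in monoculture, a difference of 2.74 ± 0.12 (adjusted p = 2.61e-14). The differences of DUSP6 (0.47 ± 0.11 (adjusted p = 0.00155)) and PHLDA1 (1.40 ± 0.12 (adjusted p = 2.12e-09)) were also toward less fall in co-culture, as were all 11 called differences of the list.

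**Figure D4:**
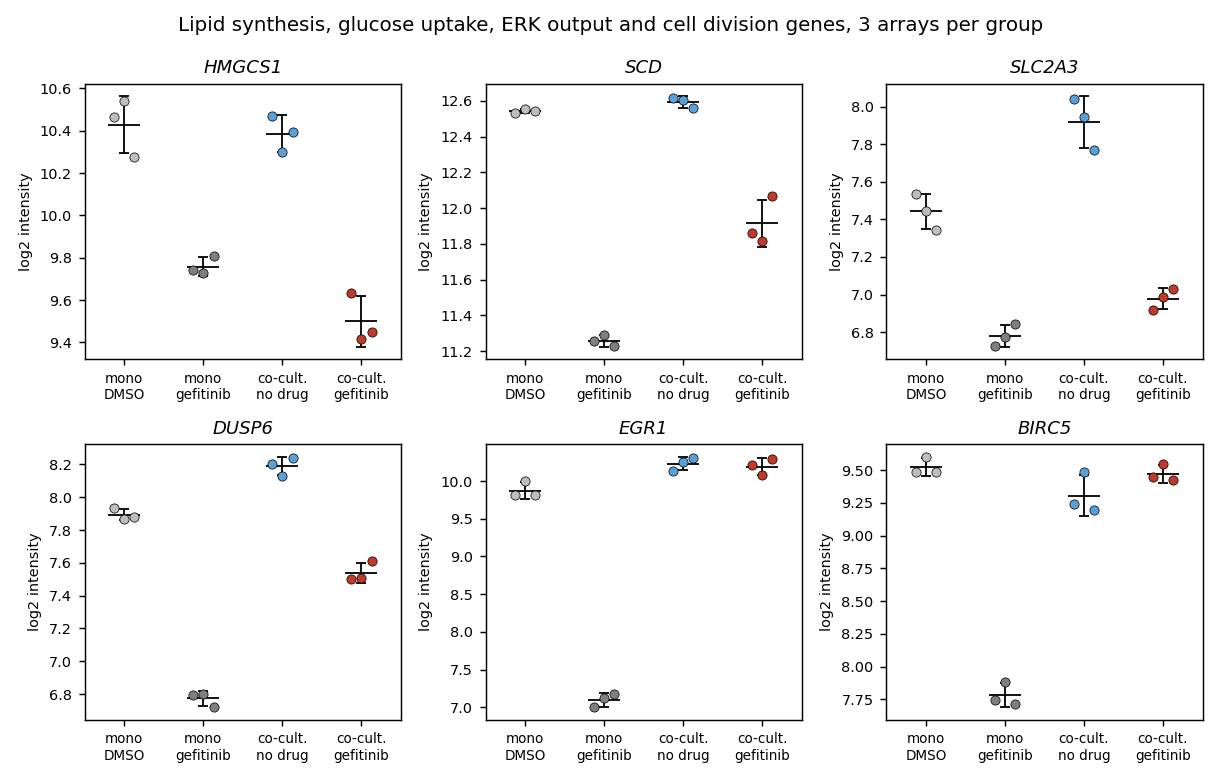
Log2 intensity (y axis) of 6 genes on each of the 12 arrays, by group, with the group mean and SD (n = 3). HMGCS1, SCD, SLC2A3 and DUSP6 are lower with gefitinib in co-culture, by 0.65 to 0.94, while EGR1 (-0.04) and BIRC5 (0.17) keep overlapping groups in co-culture and lie far lower in gefitinib monoculture.

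Of the drug target and its relatives few passed the test. EGFR was at 11.82, 11.90 and 12.14 on the drug-free arrays and 11.77, 11.56 and 11.90 on the gefitinib arrays, with overlapping groups and a difference of -0.21 ± 0.090 (adjusted p = 0.319) that was not called, and 1 of the other 3 probes had the other sign. ERBB3, a kinase-impaired partner of EGFR, was at 0.31 ± 0.091 (adjusted p = 0.0777). Of 11 tested ErbB receptors, ligands and inhibitors 1 rose, HBEGF (median -0.02). This EGF receptor ligand was at 8.10, 8.23 and 8.26 on the drug-free arrays and 8.96, 8.89 and 8.81 on the gefitinib arrays, a change of 0.69 ± 0.087 (adjusted p = 5.86e-06). It rose by 1.89 ± 0.087 in monoculture (difference -1.20 ± 0.12 (adjusted p = 3.67e-08)). Among 20 other receptor kinases, ligands and binding proteins 2 rose and 4 fell (median -0.05). IGFBP6 and IGFBP3, which bind insulin-like growth factors, changed by -0.59 ± 0.086 (adjusted p = 7.15e-05) and -0.50 ± 0.083 (adjusted p = 3.90e-04). FGFR3 was at -0.35 ± 0.080, AXL, a receptor kinase, at -0.31 ± 0.080, its ligand GAS6 at 0.31 ± 0.080, and PROS1 at 0.35 ± 0.092. Calls ended for FGFR3 without drug-free array 1 or 2 or gefitinib array 1 (-0.34 to -0.33) and AXL without drug-free array 1 or 2 or 3 or gefitinib array 1 (-0.32 to -0.26). The same held for PROS1 without drug-free array 1 or 3 or gefitinib array 1 or 3 (0.24 to 0.38) and GAS6 without drug-free array 1 or 3 or gefitinib array 1 or 2 (0.27 to 0.30). The calls of AXL, PROS1 and GAS6 also ended with the 6 co-culture arrays alone and after background correction (-0.48, 0.40 and 0.44). Median scaling ended those of PROS1 and GAS6, and averaging probes those of AXL (-0.25) and GAS6 (0.10). That of FGFR3 (-0.71 after background correction), whose other probe had the opposite sign, ended with the mean of both (-0.12). Leaving out drug-free array 1 or 3 or gefitinib array 1 left 0 called rises in this list, and leaving out drug-free array 1 or 2 or gefitinib array 1 left 2 called falls.

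FOXO factors become active when PI3K-AKT signalling falls. Of 20 tested genes in a list of their targets, which also holds the factors FOXO1, FOXO3 and FOXO4, 3 rose and 0 fell (median 0.09). They were BCL6, a transcriptional repressor (0.44 ± 0.079 (adjusted p = 8.50e-04)), PIK3IP1, which restrains PI3 kinase (0.43 ± 0.091 (adjusted p = 0.00633)), and GADD45A, a growth arrest gene (0.35 ± 0.082 (adjusted p = 0.0128)). After background correction BCL6 was at 0.70 and PIK3IP1 at 0.92. The call of GADD45A ended without drug-free array 2 or gefitinib array 2 (0.27 to 0.33), after background correction (0.38) and with median scaling. PIK3IP1 rose by 1.63 ± 0.091 in monoculture (difference -1.20 ± 0.13 (adjusted p = 9.32e-08)).

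Mitosis genes did not pass the test in co-culture. Of 30 tested mitosis genes 0 were called by limma and 2 had an unadjusted p under 0.05 (median -0.01). MAD2L1, of the spindle checkpoint, had a difference of 0.27 ± 0.10 (adjusted p = 0.219) and was called without drug-free array 3. BIRC5, survivin, was at 9.24, 9.48 and 9.19 on the drug-free arrays and 9.45, 9.55 and 9.42 on the gefitinib arrays, a difference of 0.17 ± 0.085 (adjusted p = 0.439), and MCM2, of the replicative helicase, at 0.11 ± 0.077 (adjusted p = 0.64). Of 29 DNA replication genes 1 rose, GINS2 (0.31 ± 0.081 (adjusted p = 0.031); list median 0.06), a call that ended without drug-free array 2 or 3 or gefitinib array 1 or 2 (0.24 to 0.33), with the 6 co-culture arrays alone, with median scaling and after background correction (0.34). All 30 mitosis genes had fallen in monoculture (16% of all genes did), with a median of -1.75, and all 30 differences were called. BIRC5 was at -1.74 ± 0.085 there (difference 1.91 ± 0.12 (adjusted p = 7.64e-12)) and GINS2 at -1.77 ± 0.081 (difference 2.09 ± 0.11 (adjusted p = 9.22e-13)). CDKN2B, the cell cycle inhibitor p15, was the called gene among 13 CDK inhibitors and cyclins (0.40 ± 0.081 (adjusted p = 0.00447)), and the call ended with the mean of its probes (0.29).

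Further genes among the 15 largest falls were KRT16P2, FGFBP1, IL20RB, KLK6 and MUC1. KRT16P2, a keratin 16 pseudogene whose probe may bind keratin 16 RNA, was at 9.20, 8.93 and 9.16 on the drug-free arrays and 7.60, 7.78 and 7.60 on the gefitinib arrays, a change of -1.44 ± 0.094 (adjusted p = 7.22e-11). FGFBP1, a secreted carrier of fibroblast growth factors, was at 9.53, 9.44 and 9.46 on the drug-free arrays and 8.26, 8.33 and 8.24 on the gefitinib arrays, a change of -1.20 ± 0.077 (adjusted p = 5.67e-11). The groups of both were far apart. IL20RB, a cytokine receptor chain, changed by -0.97 ± 0.082 (adjusted p = 1.48e-08). KLK6, a secreted protease, changed by -0.86 ± 0.077 (adjusted p = 4.10e-08), but its other probe had the opposite sign and the mean of both was -0.42. Of 13 tested epithelial markers 3 fell and 0 rose (median -0.05). MUC1, a membrane mucin, was at 10.19, 10.11 and 10.01 on the drug-free arrays and 9.24, 9.33 and 9.15 on the gefitinib arrays, a change of -0.86 ± 0.092 (adjusted p = 5.43e-07). The keratins KRT8 and KRT18, which pair in simple epithelia, changed by -0.74 ± 0.098 (adjusted p = 1.38e-05) and -0.42 ± 0.091 (adjusted p = 0.00765). The call of KRT18 ended without drug-free array 1 (-0.32), after background correction (-0.46) and with the mean of its probes (-0.21).

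NRF2 target genes of detoxification were lower in 5 of 15 tested members and higher in 0 (median -0.19), in 2 when drug-free array 1, 2 or 3 or gefitinib array 1 was left out, and in 3 without gefitinib array 2 or 3. The quinone reductase NQO1 changed by -0.40 ± 0.089 (adjusted p = 0.00888). AKR1B10, AKR1C2 and AKR1C3, aldo-keto reductases, were at -0.39 ± 0.086, -0.35 ± 0.087 and -0.32 ± 0.081, and the export pump ABCC2 at -0.36 ± 0.084. AKR1B10, AKR1C2 and ABCC2 are dim genes, and after background correction they were at -1.18, -1.09 and -1.10. AKR1B10 was detected on 1 and AKR1C2 and ABCC2 on 2 of the 3 gefitinib arrays. Calls ended for NQO1 without drug-free array 3 or gefitinib array 1 (-0.36 to -0.32), AKR1B10 without drug-free array 1 or gefitinib array 3 (-0.36 to -0.35) and ABCC2 without drug-free array 2 or gefitinib array 2 (-0.33). They also ended for AKR1C2 without drug-free array 1 or 2 or 3 or gefitinib array 1 or 3 (-0.37 to -0.31) and AKR1C3 without drug-free array 1 or 2 or 3 or gefitinib array 1 or 2 or 3 (-0.34 to -0.30). Those of NQO1 and AKR1C3 ended after background correction (-0.42 and -0.44), and that of NQO1 with the mean of its probes (-0.26). AKR1C3 rose in monoculture (0.67 ± 0.081; difference -0.99 ± 0.11 (adjusted p = 2.64e-07)). Genes of the AKR1C family are near-identical and may share signal.

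Across all genes, most calls in co-culture were also calls of gefitinib in monoculture. The comparisons share no array. The titles of all 6 co-culture arrays, and of no other, end in a suffix that the labels do not explain. Whatever it marks cannot be told apart from co-culture in the test of the difference. The same holds for vehicle, medium and drug exposure, where these differed between the settings. DMSO is named for the monoculture control and no vehicle for the drug-free co-culture. The labels do not make clear which medium the monocultures had in the last 48 h, or whether gefitinib was washed from them. The share of these factors in the differences was not tested. Of the 346 genes 276 (79.8%) were called in both, which is 5.83% of the 4735 genes called in monoculture (34.9% of genes tested). Of these, 254 had the same direction, 125 higher and 129 lower in both, and 22 opposite directions. Among all 13577 genes 54.5% had the same sign in both comparisons, and among the 346 it was 85.0%. The difference between the settings was called for 218 of the 346 (63.0%) and for 3009 of all genes (22.2%). Of the 254 genes with one direction, 146 had a called difference toward a smaller change in co-culture and 6 toward a larger one. All 22 genes of opposite direction had a called difference, PCK2, CBS, SLC6A9, FGFR3, AKR1C3, GINS2 and FST among them. CCL2 apart, whose co-culture change is a bound, the largest differences among the called genes were those of GINS2 (2.09), FILIP1L (-1.78), SBK1, a kinase gene (-1.76), FST (1.69) and MALL (1.65). They were followed by MDK, the growth factor midkine (-1.61), DYSF, dysferlin (-1.56), CACNB3, a calcium channel subunit (-1.54), and OLFML2A (-1.50). In co-culture SBK1, MDK, DYSF and CACNB3 rose by 0.38 ± 0.080, 0.38 ± 0.087, 0.42 ± 0.083 and 0.40 ± 0.10, and MALL changed by -0.34 ± 0.085. Calls in co-culture ended for MDK without drug-free array 1 or gefitinib array 2 (0.31 to 0.32), CACNB3 without drug-free array 3 or gefitinib array 3 (0.27 to 0.30) and MALL without drug-free array 1 or 3 or gefitinib array 1 or 2 or 3 (-0.35 to -0.29), and those of these 3 genes ended after background correction (0.42, 0.64 and -0.38). Those of CACNB3 and MALL ended with the 6 co-culture arrays alone, and that of MDK with the mean of its probes (0.08). SBK1 was at 0.89 and DYSF at 0.72 after background correction.

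**Figure D5:**
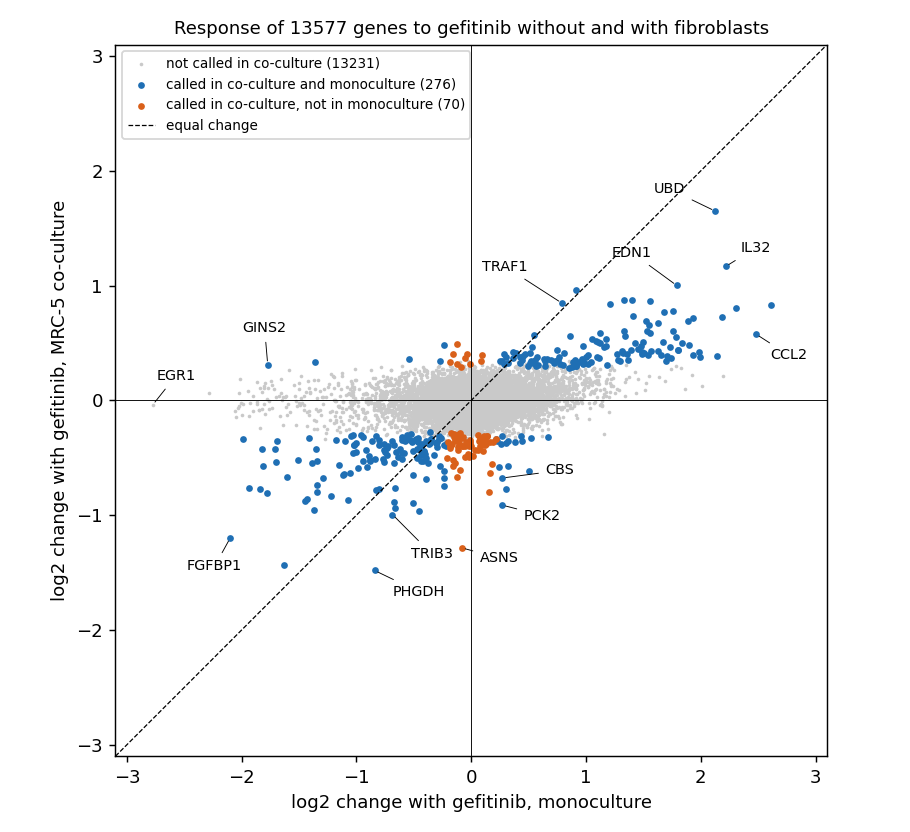
Each of 13577 genes is placed by its log2 change with gefitinib in monoculture (x axis) and in co-culture (y axis), with a dashed line of equal change. Blue marks the 276 genes called in both, orange the 70 called in co-culture and not in monoculture, and grey the rest. Most blue points lie between the dashed line and the horizontal axis, ASNS, PCK2 and CBS lie low near or to the right of the vertical axis, and EGR1 lies far left at a co-culture change near 0.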

How the data were processed

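RNA of HCC827 cells was measured on 12 Illumina bead arrays with biotin-labelled cRNA, 3 per group, and arrays were grouped by their titles. The deposited table used for all main results gives, per probe and array, an intensity already normalized by the authors; the labels do not name the method. These values are linear, with medians of 104 to 105. A second deposited table holds scanner intensities and, per the file headers, a detection p-value for each probe. Its rows for the 6 co-culture arrays do not follow the probe names (r at most 0.00105 with the normalized values). They were matched to probes by their values, and 48106 of 48106 rows were mutual best matches; shuffled monoculture rows returned to their probes in 100% of 48104 cases.

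Of 48104 complete probes, 30113 had 1 gene symbol in the platform annotation. Probes with a detection p under 0.05 on at least 3 of 12 arrays were kept, and a gene was represented by its brightest kept probe, which gave 13577 genes. log2 of the authors' normalized intensities entered a limma 3.58.1 model (R 4.3.3) with a mean per group and Benjamini-Hochberg adjustment over all genes, with a two-sided test. The model was also run on simulated data with independent noise for each gene. Such data hold no effect shared by the genes of an array, so the run cannot show how the calls respond to one. Named genes were the 15 largest rises and falls, up to 6 called members of each list (its largest change where none was called), 20 fixed genes and the 10 largest differences from monoculture. Members and lists were chosen with earlier results of these data known, and the motifs after the groups were known. Promoter windows came from RefSeq, GRCh38.p14. Arrays limit the precision through their number. Alternatives were the 6 co-culture arrays alone, background correction with neqc (offset 16), median scaling, other detection filters, probe means, a replicate block and leaving out each array.

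Same-numbered arrays of the co-culture groups did not all deviate together, so the numbers were not used as pairs.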

Additional observations from a re-analysis of the deposited data

Results flagged for a closer look

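For 83 of the genes named above that were called in co-culture, the effect of gefitinib differed between co-culture and monoculture by limma's test of the difference (adjusted p under 0.05, called for 22.2% of all genes). Values are log2 effects in co-culture minus log2 effects in monoculture, so that a negative value marks a smaller rise, a larger fall or an opposite change in co-culture. No explanation was tested for any of them.

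The flagged genes of serine and amino acid supply lay below 0, except DDIT4. In the whole serine and one-carbon list of 11 tested genes, 3 differences were called upward and 4 downward (median 0.05). The differences were -1.20 for ASNS, -1.18 for PCK2, -0.95 for CBS, -0.80 for CEBPG, -0.64 for PHGDH, -0.39 for PSAT1 and -0.36 for MTHFD1L. Transporters were at -0.83 (SLC6A9), -0.54 (SLC3A2) and -0.38 (SLC7A5). The synthetases SARS1, MARS1, GARS1, WARS1 and AARS1 were at -0.49, -0.48, -0.44, -0.40 and -0.35. DDIT4, at 0.57, fell less in co-culture. In lipid synthesis ELOVL6 was at 1.29, ACAT2 at 0.83 and SCD at 0.61, all smaller falls, whereas ACSS2 was at -0.50. PFKFB4, NDRG1, ANGPTL4 and VEGFA fell less in co-culture, with 1.34, 0.99, 0.98 and 0.58.

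Most inflammatory genes rose less. The differences were -1.05 for IL32, -1.01 for CXCL8, -0.97 for CXCL1, -0.83 for CXCL16, -0.70 for IL6 and -0.47 for UBD. CCL2 was at -1.90 as measured, a value that is not fixed because its probe was not detected on any drug-free co-culture array. CFB was at -1.36, LTB at -0.90 and TNFAIP3, the exception, at 0.44. Interferon genes IFI27, EPSTI1 and IFIT2 were at -1.21, -1.07 and -0.71. HLA-B, HLA-F, HLA-E and TAPBP were at -0.67, -0.66, -0.59 and -0.39.

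Of the vasoactive, TGF-beta and contractile genes, PMEPA1 was at -1.32, ANKRD1 at -0.95, THBS1 at -0.92, EDN1 at -0.79, TAGLN at -0.70, TGFB2 at -0.64, ID3 at -0.46 and EDN2 at -0.37. FST was at 1.69, with opposite directions in the settings. FILIP1L, SBK1, MDK and DYSF were at -1.78, -1.76, -1.61 and -1.56. CACNB3, OLFML2A, TUBB2B, SOX4 and GLIPR1 were at -1.54, -1.50, -1.45, -0.98 and -0.53.

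Signalling genes that fell less in co-culture were PHLDA1 (1.40), AXL (0.52), DUSP6 (0.47), IGFBP6 (0.40) and ETV5 (0.38). Rises were smaller for HBEGF (-1.20), PIK3IP1 (-1.20), CDKN2B (-1.15), PROS1 (-0.93), GAS6 (-0.87), GADD45A (-0.41) and BCL6 (-0.31). FGFR3 was at -0.67 and GINS2 at 2.09, both with opposite directions.

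Among epithelial and other genes MALL was at 1.65, KRT18 at 0.93, FGFBP1 at 0.90, KRT8 at 0.61 and KLK6 at 0.58. CPE was at -1.42, IL20RB at -0.51, DEFB103B at -0.43, AKR1C3 at -0.99 and AKR1C2 at -0.43.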

How the results depend on the processing

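The count of 346 called genes was 204 after neqc background correction, and the 254 genes called in the same direction in co-culture and monoculture became 149. Of those 204 genes 188 were among the 346. Under the other settings run, 251 (the 6 co-culture arrays alone) to 383 (probes detected on all 6 co-culture arrays) genes were called. Leaving out 1 array gave 254 to 336 called genes, 2650 to 2914 genes with a called difference from monoculture (3009 with all arrays) and 189 to 243 genes called in the same direction in both settings (254 with all arrays). Of 113 called named genes 75 kept their call without any 1 of the co-culture arrays, and 68 kept it under every alternative that tested them. The filter on detection on all 6 co-culture arrays tested 109 of the 113, CCL2 not among them. None of the 113 changed sign under an alternative that tested it. Background correction gave a larger change in 108 of the 113, and in 32 by more than 1.5 times. With the replicate number as a block, 357 genes were called in co-culture, with 3082 differences and 260 genes called in the same direction in both settings, and all 113 named calls held. Correlations of the deviations of same-numbered arrays were -0.104, 0.184 and 0.209, and those of differently numbered arrays ran from -0.295 to 0.146. With 3 same-numbered pairs, it is not settled whether such samples share more than a number. No slide is given in the file headers, so that alternative was not run. Intensities near background limit what can be said of dim genes.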

Other observations

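Several groups of genes had few or no called members with gefitinib in co-culture. With 3 arrays per group, this does not show that the other members were unchanged. Of 16 tested BCL2 family genes 1 rose, BOK, a BAX relative (0.42 ± 0.10 (adjusted p = 0.0218)), whose groups overlapped and whose call ended without drug-free array 1 or 3 or gefitinib array 1 or 2 (0.34 to 0.37), with the 6 co-culture arrays alone and after background correction (0.75). The pro-apoptotic BCL2L11 was at -0.09 ± 0.093 (adjusted p = 0.78). Of 19 autophagy and lysosome genes 0 passed limma's test and 3 had an unadjusted p under 0.05 (median 0.10). CTSA, a lysosomal carboxypeptidase, came closest (0.28 ± 0.078 (adjusted p = 0.0532)). In monoculture 12 of these 19 had risen (18.9% of all genes had). XBP1, a factor of the unfolded protein response, was the called gene among 16 endoplasmic reticulum folding genes (-0.40 ± 0.083 (adjusted p = 0.00463)), and HSPA1A among 13 heat shock genes (-0.36 ± 0.094 (adjusted p = 0.032)). The call of XBP1 ended after background correction (-0.44). HSPA1A and its copy HSPA1B are near-identical. The call of HSPA1A ended with the 6 co-culture arrays alone, after background correction (-0.38), and for HSPA1A without drug-free array 1 or gefitinib array 1 or 3 (-0.39 to -0.23).

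Of 12 tested secretory and airway genes 1 rose and 3 fell. CPE, a peptide-processing enzyme of secretory granules, rose by 0.48 ± 0.080 (adjusted p = 3.74e-04), or 1.12 after background correction. MUC1, DEFB103B, a defensin with a near-identical copy (-0.49 ± 0.090 (adjusted p = 0.00123)), and FOXA2, a lung lineage factor (-0.33 ± 0.082 (adjusted p = 0.0218)), fell. The call of DEFB103B ended after background correction (-1.04), and that of FOXA2 without drug-free array 1 or 2 or gefitinib array 1 or 2 (-0.33 to -0.28) and with the 6 co-culture arrays alone. FOXA2 was at -0.89 after background correction. Among 10 genes associated with drug tolerance CD24 rose (0.33 ± 0.078 (adjusted p = 0.0153)) and IGFBP3 fell; the call of CD24 ended without drug-free array 1 or 2 or gefitinib array 1 or 3 (0.28 to 0.32), with the 6 co-culture arrays alone, with median scaling and after background correction (0.34). Of 7 mesenchymal transition genes TGFB2 was the called one. A further 7658 kept probes had no single gene symbol, of which 68 were called, 18 of them higher.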
